A study of Mus musculus with 6 samples.

Results

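The 38 genes described here encode enzymes of glycolysis, the transporters that bring glucose in and lactate out, and the kinases that inhibit pyruvate dehydrogenase. They also encode components and classical targets of the hypoxia-inducible factor (HIF) pathway. They were taken from a list of names, with no measured value in the rule, and every peak that the 4 ATF4 ChIP-seq lists assigned to them was taken, at any distance from the transcription start site (TSS). The 4 lists held 31 such peaks among 17462, at 15 of the 38 genes, and at 8 of those genes a peak lay 5 kb or less from the TSS. The share of all genes with a peak over the 4 lists together was not computed, so these totals have no background. List by list, the counts did not set the share of the members apart from that of all protein-coding genes.

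ChIP-seq with an antibody to ATF4 was done on primary mouse embryonic fibroblasts (MEFs), cells grown from embryos, of the 129S6/SvEvTac strain. The cells were wild-type (WT) or GCN2-/- (GCN2 KO), and were kept for 24 h either in complete DMEM (+Leu) or in DMEM without leucine (-Leu). Each of the 4 conditions had 1 library, for which the authors pooled chromatin of 2 separate experiments with 5 or more replicates in each. No difference between conditions could therefore be tested, and no p-value is given. The WT lists held 4850 (+Leu) and 6374 (-Leu) peaks and the GCN2 KO lists 3566 (+Leu) and 2672 (-Leu), with median scores of 29 to 30 and no sequencing depth. Where values of all 4 lists follow each other, they are in this order. The peak score is the peak caller's own measure, in whole numbers from 13 upward, higher for a stronger peak, and it is not normalized between libraries. Peak lists carry no expression, so neither the fibroblast identity nor the loss of GCN2 could be checked from them: Eif2ak4, which encodes GCN2, had 0 peaks in all 4 lists.

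ATF4 is a basic leucine zipper factor of the integrated stress response. GCN2 senses uncharged tRNA when an amino acid is lacking and phosphorylates eIF2α, which favours translation of the Atf4 mRNA. ATF4 binds with C/EBP family partners to composite elements such as TGATGCAA, and its best known targets are genes of amino acid synthesis and transport. HIF, in contrast, is a dimer of an oxygen-regulated α subunit and ARNT that binds the core letters ACGTG or GCGTG and is the classical activator of glycolytic genes when oxygen is low. Prolyl hydroxylases of the Egln family and the VHL ubiquitin ligase remove the α subunits when oxygen is present. The labels name leucine and genotype as what was varied here, and not oxygen.

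The sequences of 5 windows are shown. Those at Pfkp, Aldoa and Hif1a carry the member peaks that scored over 100, that at Slc2a1 holds a near match to the ATF4 letters, and that at Slc16a3 is the only 1 of the 8 near-TSS windows with ACGTG. Farther windows at Hk1, Pfkfb2, Epas1, Egln3 and Aldoa, a farther Slc16a3 window and a remote Pfkp window held ACGTG as well. All are mm10 sequence read from the RefSeq GRCm38.p6 assembly. The Pfkp stretch is the one common to all 4 lists (chr13:6636587-6636859, minus strand, which is the strand of the gene), and its capitals mark TGATGCAA. The other 4 are plus strand sequence of the center of a WT -Leu peak. In those at Aldoa (chr7:126808569-126808689), Hif1a (chr12:73779391-73779511) and Slc2a1 (chr4:119105348-119105468) the capitals mark the closest match to TGATGCAA within 50 bp of the center, and at Slc16a3 (chr11:120946428-120946578) they mark ACGTG and its reverse complement CACGT.
Pfkp, intron 1: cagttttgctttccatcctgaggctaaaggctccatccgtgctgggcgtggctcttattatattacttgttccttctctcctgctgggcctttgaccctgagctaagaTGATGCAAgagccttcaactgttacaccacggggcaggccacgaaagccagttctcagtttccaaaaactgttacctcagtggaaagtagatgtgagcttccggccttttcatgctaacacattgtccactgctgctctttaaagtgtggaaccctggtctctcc
Aldoa, upstream: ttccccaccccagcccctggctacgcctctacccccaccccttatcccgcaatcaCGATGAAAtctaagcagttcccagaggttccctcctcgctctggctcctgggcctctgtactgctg
Hif1a, far upstream: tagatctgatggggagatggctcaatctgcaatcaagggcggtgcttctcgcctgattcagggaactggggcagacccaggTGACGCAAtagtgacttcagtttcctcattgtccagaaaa
Slc2a1, upstream: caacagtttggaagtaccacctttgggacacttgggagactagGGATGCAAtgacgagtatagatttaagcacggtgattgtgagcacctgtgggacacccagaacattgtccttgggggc
Slc16a3, upstream: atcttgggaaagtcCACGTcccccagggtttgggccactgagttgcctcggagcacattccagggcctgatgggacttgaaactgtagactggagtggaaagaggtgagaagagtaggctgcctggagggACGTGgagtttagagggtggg
Counted from 1 at the 5′ end of TGATGCAA, the marked letters differ from it by T1C and C6A at Aldoa, T4C at Hif1a and T1G at Slc2a1. Pfkp alone of the 15 genes had the exact element. A match with at most 1 mismatch within 50 bp of the center was in 3 of 12 member windows of WT -Leu, Pfkp included. It was in 18.9% of all WT -Leu peaks.

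In WT MEFs there were 9 member peaks at 7 genes with leucine and 12 at 9 genes without it. In GCN2 KO MEFs there were 2 at 2 genes with leucine and 8 at 5 genes without it. As a share of the 38 genes these came to 18.4% (95% Wilson interval 9.22 to 33.4), 23.7% (12.99 to 39.2), 5.26% (1.46 to 17.3) and 13.2% (5.75 to 27.3). Of 21774 protein-coding genes, 14.7%, 18.4%, 11.2% and 8.61% had an assigned peak in the same lists, each inside the corresponding interval. The members were thus found among peak-bearing genes at shares that these counts do not set apart from those of all genes. The intervals cover counting error only.

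Within 5 kb of the TSS, the limit used for target genes, 2, 4, 0 and 2 of the 38 members had a peak. The shares were 5.26% (1.46 to 17.3), 10.5% (4.17 to 24.1), 0% (0 to 9.18) and 5.26% (1.46 to 17.3). The background among all protein-coding genes was 3.05%, 4.42%, 2.28% and 1.62%, again inside each interval. No member had such a near peak in more than 1 list. The share of all genes with a near peak in more than 1 list was not computed, so this count has no background. Slc2a1, at 3.337 kb and a score of 24, lay closest to the limit from inside, and Car9, at 5.691 kb and a score of 22, from outside.

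**Figure D1:**
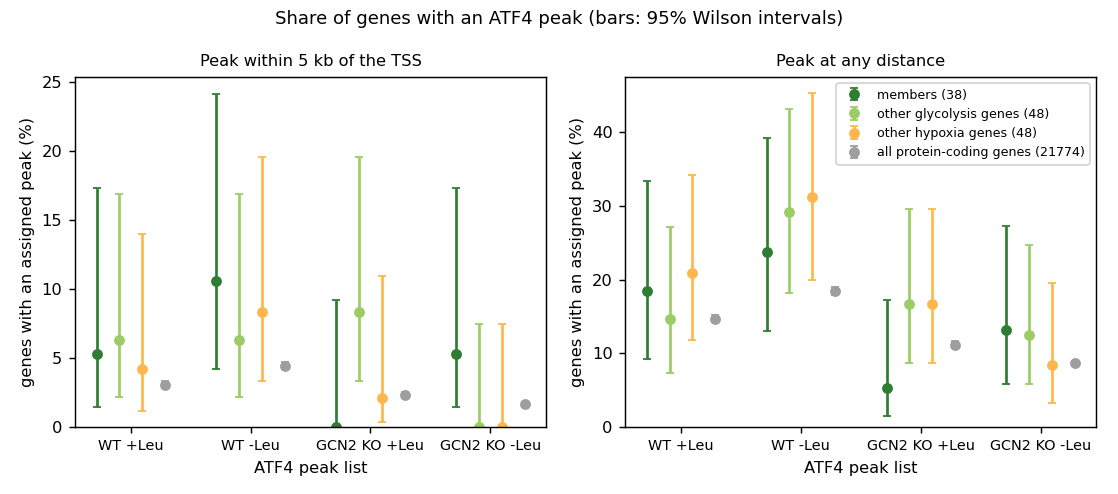
Share of genes with an assigned ATF4 peak (y axis, %) in each peak list (x axis), within 5 kb of the TSS (left) and at any distance (right). Shown are the 38 members, 48 other genes of glucose metabolism (labelled other glycolysis genes), 48 other hypoxia genes and 21774 protein-coding genes. Some of the genes labelled other glycolysis genes, such as Pck2, act in the opposite direction to glycolysis. Points are shares and bars 95% Wilson intervals. The interval of the members contains the share of all protein-coding genes in all 4 lists, on both sides.

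The number of peaks a gene collects depends on how much sequence lies nearer to it than to any other gene. For the members this territory came to 3.45 Mb of 2725.52 Mb. Divided by it, the peaks assigned to members came to 2.61, 3.47, 0.579 and 2.32 per Mb in the 4 lists. Assignment followed the gene names of the lists and the territory the RefSeq TSSs, so an assigned peak can lie outside it. An Hk1 peak 40973 bp from the TSS did, as the Hk1 territory was 0.0303 Mb in all. The densities of the whole lists were 1.78, 2.33, 1.30 and 0.975 per Mb, at which the same territory would hold 6.13, 8.06, 4.50 and 3.37 peaks. The value for the members was above the list density in 3 lists and below it in GCN2 KO +Leu, a difference that was not tested. Pfkp (0.827 Mb), Egln3 (0.493 Mb) and Epas1 (0.315 Mb) made up 47.3% of the territory and received 12 of the 31 peaks.

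**Figure D2:**
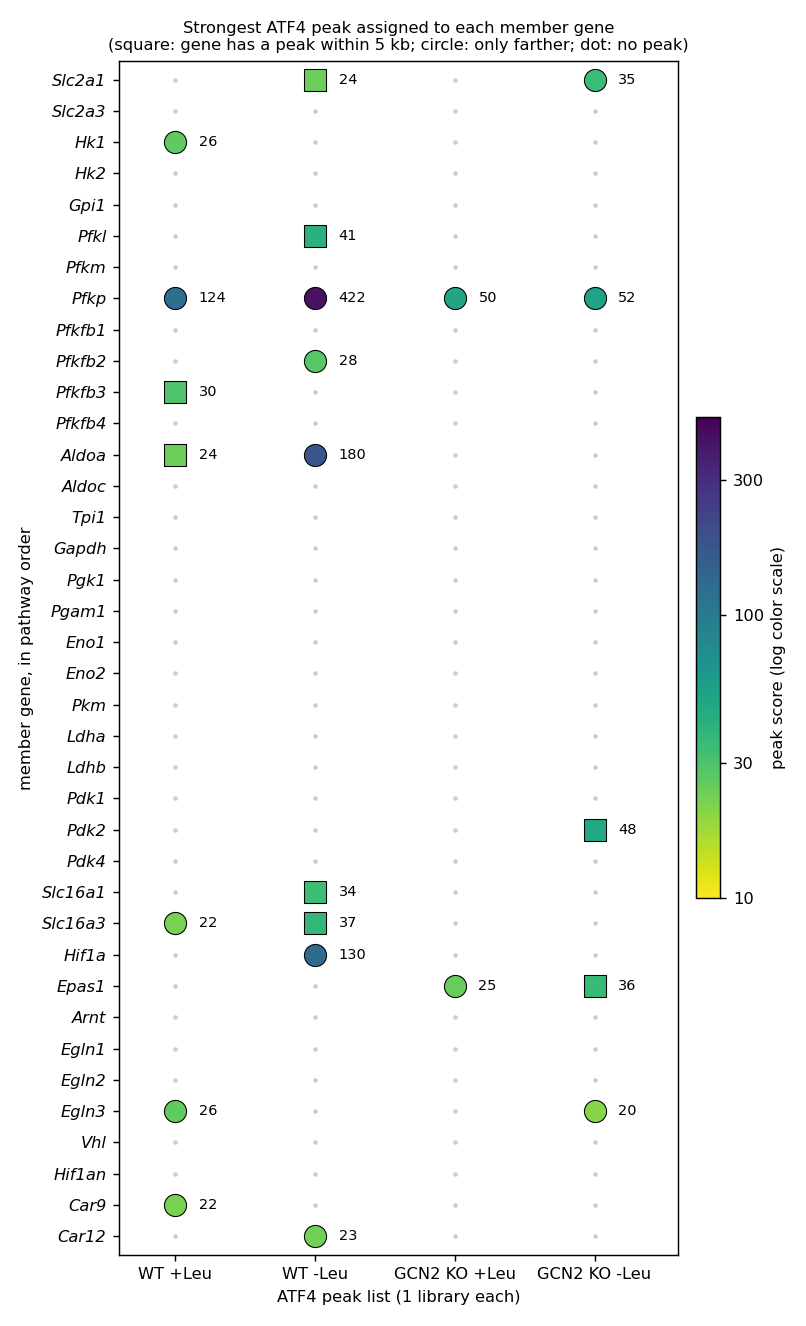
Score of the strongest ATF4 peak assigned to each of the 38 member genes (rows, in pathway order) in each peak list (columns). Squares mark genes whose peaks in that list include a near one (5 kb or less), circles genes with peaks only farther away, and small dots genes without a peak. Pfkp is the only row filled in all 4 columns, and 23 rows are empty.

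Phosphofructokinase catalyses the committed step of glycolysis, and its platelet isoform gene, Pfkp (Entrez 56421), held the strongest member peak in every list. The peak lay in intron 1 of 21, about 12 kb downstream of the TSS, in sequence that a noncoding RNA gene on the opposite strand, Gm35730, also covers. In WT MEFs its score was 124 with leucine (rank 63 of 4850) and 422 without (rank 121 of 6374). In GCN2 KO MEFs it was 50 with leucine (rank 163 of 3566) and 52 without (rank 111 of 2672). WT -Leu stood far above the other 3 lists by score, and both GCN2 KO lists stood below both WT lists. By rank the peak was in the top few percent of every list, at percentiles of 98.7, 98.1, 95.5 and 95.9.

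The 4 windows (chr13:6636587-6636887, chr13:6636577-6636877, chr13:6636559-6636859 and chr13:6636578-6636878, in the same order of lists) all contained the TGATGCAA at chr13:6636744-6636751. The motif center was 10.5, 20.5, 38.5 and 19.5 bp from the centers of these windows, always on the upstream side with respect to Pfkp transcription. All 4 windows thus gave the same element within 50 bp of the center. As they overlap at 1 site, these are not 4 separate matches. Of all peaks of the 4 lists, 2.71%, 6.95%, 1.07% and 1.09% held the element within 50 bp of the center.

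**Figure D3:**
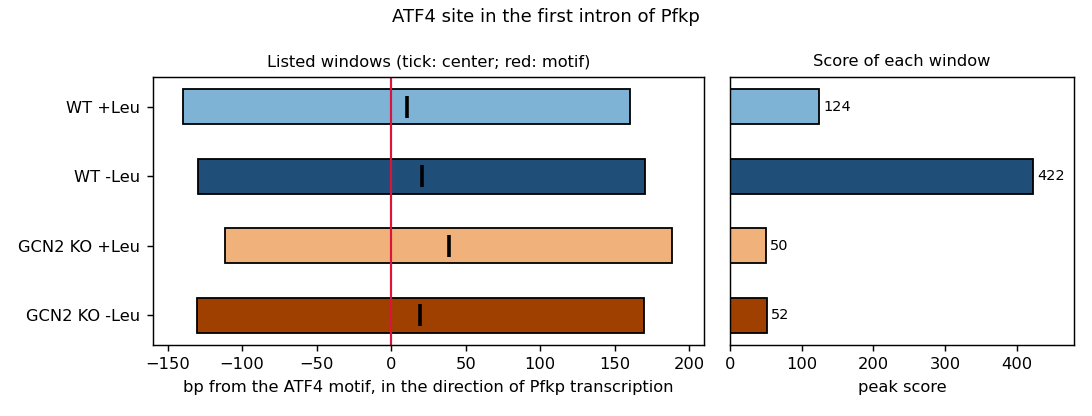
The 4 listed windows at the Pfkp intron 1 site (left; x axis, bp from the center of the ATF4 motif in the direction of transcription, ticks mark window centers) and their peak scores (right; linear axis from 0). Each bar is 1 library. The windows nearly coincide, with the motif 10.5 to 38.5 bp from their centers, and the scores are 124, 422, 50 and 52.

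The score ratio of -Leu to +Leu at the Pfkp site was 3.40 in WT and 1.04 in GCN2 KO MEFs. Of the WT -Leu peaks, 309 had a WT +Leu peak with its center 300 bp or less away, and over these the median ratio of each to its nearest partner was 2.33, with an interquartile range of 1.27 to 4.54, and 117 had a higher ratio than Pfkp. Of the GCN2 KO -Leu peaks, 96 had such a +Leu partner, and their median was 1 (interquartile range 0.647 to 1.25), and 40 had a higher ratio. Pfkp therefore lay within the interquartile range in each genotype. The ratio of GCN2 KO to WT was 0.403 with leucine and 0.123 without. By percentile within its list in place of score, these ratios were 0.967 and 0.977, and that of -Leu to +Leu was 0.994 in WT, below 1. The scores are not normalized between libraries, so the size of these ratios has no replicate or depth check.

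Recurrence of this kind was rare. Only 30 sites were in all 4 lists, of which 14 were beyond 5 kb from the assigned TSS. The 27 on assembled chromosomes were searched for the motif, and 17 of these held TGATGCAA near the center (50 bp or less). Pfkp was the only member site among the 30, the 19th by score in WT -Leu, where the median of the 30 was 932.5. It was also the only member peak shared by any pair of lists, and no further one was gained with centers allowed 1000 bp apart. For all peaks, counted here from the +Leu lists, 308 of 4850 WT +Leu peaks (6.35%) had a partner in WT -Leu, and 98 of 3566 GCN2 KO +Leu peaks (2.75%) had one in GCN2 KO -Leu.

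The other 27 member peaks, at all 15 genes, scored from 13 to 180 with a median of 25. Of these, 25 scored at most 48 and 18 scored below 30, the median of all peaks. Both exceptions above 100 were in WT -Leu, at Aldoa and Hif1a.

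**Figure D4:**
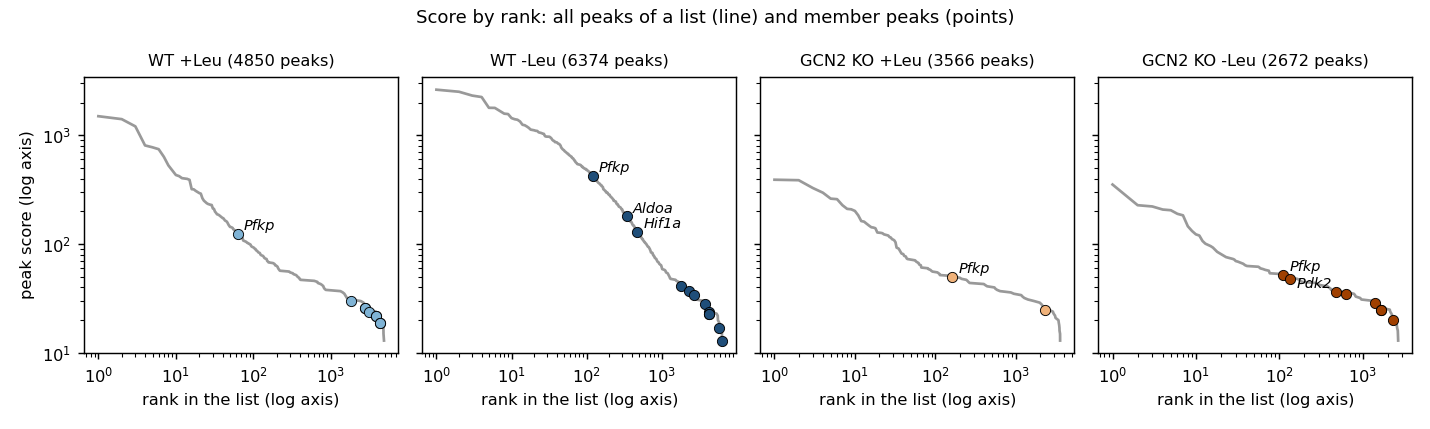
Peak score (y axis, log) against rank within the list (x axis, log) for all peaks of each list (gray line) and for the peaks assigned to members (points, 1 per peak). Pfkp is at the top of the member peaks in each list, Aldoa (180) and Hif1a (130) follow in WT -Leu, and most other points lie in the low tail.

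Glucose uptake and trapping are the work of the Slc2a transporters and the hexokinases. Slc2a1, which encodes the widespread transporter GLUT1, had no peak in either +Leu list, a peak of score 24 in WT -Leu at 3337 bp upstream of the TSS (chr4:119105258-119105558), and a peak of score 35 in GCN2 KO -Leu at 24737 bp downstream, in exon 6 of 10. The -Leu lists thus each had a peak at this gene, but at places 28.1 kb apart. The upstream window, within the noncoding RNA gene Gm52706, held GGATGCAA, and the exonic one had no match within 1 mismatch of TGATGCAA in the 50 bp either side of its center. Slc2a3, the neuronal type transporter GLUT3, had none.

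Hk1, the constitutive hexokinase, had 3 peaks in WT +Leu, of scores 26, 19 and 19, and none in the other lists. The strongest lay 12026 bp upstream in intron 15 of the neighbouring Hkdc1, a related hexokinase domain gene, and the other two in introns of Hk1 itself. Hk2, the inducible hexokinase and a classical HIF target, and Gpi1, the isomerase of the next step, had none.

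Of the other phosphofructokinase genes, Pfkl, the liver isoform, had 1 peak, in WT -Leu, of score 41 (rank 1790 of 6374). It lay 1530 bp downstream of the TSS in intron 1 of 21 (chr10:78008116-78008416). Pfkm, the muscle isoform, had none. Both Pfkp and Pfkl thus had an intron 1 peak in WT -Leu, but the Pfkl window did not hold TGATGCAA, nor a match within 1 mismatch in the 50 bp either side of its center. Pfkp also had 3 remote intergenic peaks: in WT -Leu of score 23 at 336574 bp and of score 17 at 143657 bp upstream, and in GCN2 KO -Leu of score 25 at 597178 bp upstream.

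The PFKFB enzymes set the level of fructose 2,6-bisphosphate, the main allosteric activator of phosphofructokinase. Pfkfb3, the inducible isoform, had a peak of score 30 in WT +Leu alone, 932 bp downstream of the TSS in intron 1 (chr2:11501008-11501308). Pfkfb2 had a peak of score 28 in WT -Leu alone, 16430 bp downstream in intron 14. Pfkfb1 and Pfkfb4 had none, so that weak, unshared peaks were assigned to 2 of 4 genes, 1 in each WT list. Of all protein-coding genes, 14.7% had an assigned peak in WT +Leu and 18.4% in WT -Leu.

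Lower glycolysis turns fructose 1,6-bisphosphate into pyruvate, and of its 9 genes only Aldoa, the main aldolase of most tissues, had any peak. In WT +Leu it scored 24 at 583 bp upstream, in the promoter (chr7:126800880-126801180). In WT -Leu it scored 180 (rank 344 of 6374) at 8182 bp upstream, in intergenic sequence (chr7:126808479-126808779). The distal peak was the second strongest member site and fell in a different place from the promoter peak. GCN2 KO cells had no Aldoa peak in either list. Aldoc, Tpi1, Gapdh, Pgk1, Pgam1, Eno1, Eno2 and Pkm had no peak in any list.

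At the pyruvate branch, lactate dehydrogenase regenerates NAD, and pyruvate dehydrogenase kinases inhibit pyruvate dehydrogenase. Ldha and Ldhb, which encode the subunits of lactate dehydrogenase, had no peak. Pdk2 had 2, both in GCN2 KO -Leu: one of score 48 (rank 135 of 2672) at 15803 bp upstream, in exon 14 of the integrin gene Itga3, and one of score 29 at 2082 bp downstream, in intron 2 (chr11:95039139-95039439). Pdk1, the best known HIF target of the family, and Pdk4 had none.

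Lactate leaves the cell through proton-coupled transporters, and both of those among the members had a near-TSS peak in WT -Leu. Of all protein-coding genes, 4.42% had one in that list, and so small a group was not compared with them. Slc16a1, encoding MCT1, scored 34 at 641 bp upstream, in the promoter (chr3:104637873-104638173), and had no other peak. Slc16a3, encoding the lactate exporter MCT4, scored 37 at 1981 bp upstream (chr11:120946353-120946653). In WT +Leu Slc16a3 had a different peak, of score 22 at 20818 bp downstream, inside the kinase gene Csnk1d. No GCN2 KO list had a peak at either transporter gene. By percentile within their lists these 3 peaks were at 57.9, 63.3 and 20.1, in that order, well below the Pfkp site.

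Among the HIF subunits, Hif1a had 2 peaks, both in WT -Leu. The stronger scored 130 (rank 472 of 6374) at 128416 bp upstream (chr12:73779301-73779601), within the noncoding RNA gene Gm34189, and its window held TGACGCAA at chr12:73779472-73779479. The weaker scored 13, the lowest score in the lists, at 32576 bp upstream, at a CA repeat. The TSS that the lists used for Hif1a was 6543 bp from the start of the RefSeq gene, and from the latter the peaks lay 121873 and 26033 bp upstream.

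Epas1, which encodes HIF-2α, had peaks only in the GCN2 KO lists. In +Leu it scored 25 at 194900 bp upstream. In -Leu it scored 36 at 113791 bp upstream, in a window that is 56.1% repeat sequence, and 25 at 3119 bp upstream (chr17:86750595-86750895). Both remote peaks lay in introns of the neighbouring kinase gene Prkce, and the near one held TGACTCA, the letters bound by AP-1 factors. Arnt, the shared partner, had none.

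Of the 5 genes for the oxygen sensors and VHL, only Egln3 had peaks, of score 26 in WT +Leu at 369495 bp downstream, in an intron of Npas3, and of score 20 in GCN2 KO -Leu at 53716 bp downstream. Egln1, Egln2, Hif1an and Vhl had none. The carbonic anhydrases Car9 and Car12, pH-regulating HIF targets, each had 1 peak, of score 22 in WT +Leu in intron 9 of Car9 and of score 23 in WT -Leu at 37441 bp downstream in intron 5 of Car12.

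**Figure D5:**
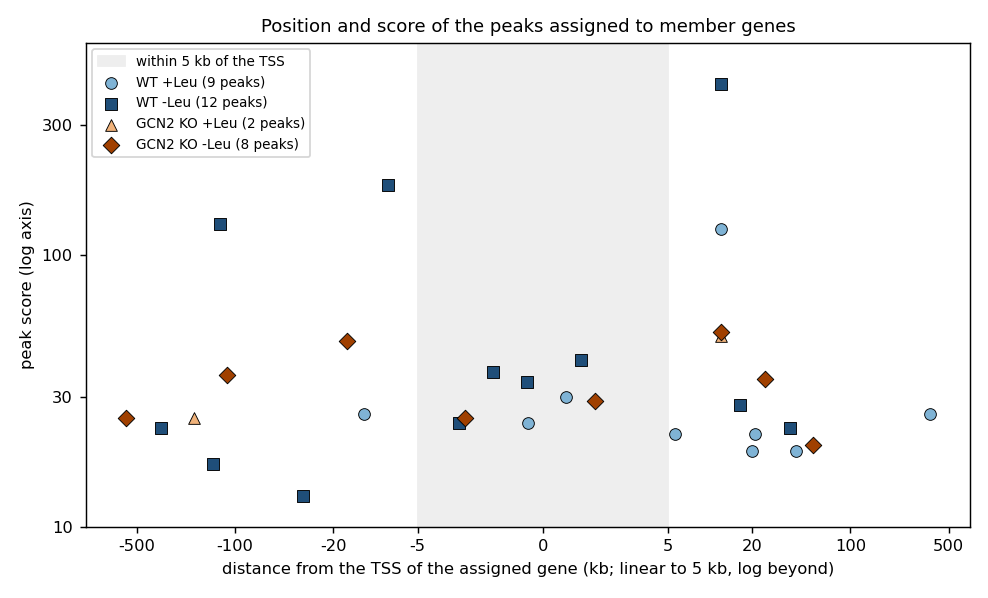
Distance from the TSS of the assigned gene (x axis, kb, linear to 5 kb and log beyond, negative upstream) and peak score (y axis, log) of the 31 peaks assigned to members, by list. The gray band is 5 kb either side of the TSS. All 8 peaks in the band score 24 to 41, and the 4 peaks above 100 lie outside it.

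For the 23 members without a peak, peaks assigned to other genes were looked up as well. The nearest peak in any list, whatever its assigned gene, was 19.273 kb (Gpi1) to 503.052 kb (Pgk1) from their TSS, with a median of 59.75 kb, and 0 of the 23 had one within 10 kb. Across all 38 members, 19 peaks fell inside a member's gene body, of which 13 were assigned to that member and 6 to another gene, with scores of 18 to 36. These 6 were at Hk1, Gpi1, Pfkl and Pfkp, with 1 each, and at Car12, with 2. Gpi1 was the only member without an assigned peak to hold one in its body, of score 28 in WT -Leu.

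The 31 peaks were annotated as intronic in 17 cases, intergenic in 10, exonic in 2 and promoter in 2. By the reference annotation 13 lay in the body of the member itself, 8 in that of another gene and 10 outside genes, and 15 were upstream of the TSS. Their median distance from the TSS was 15.803 kb, against 25.28 kb for all peaks, and their median GC content was 52.5%, against 52.2%. None of these differences was tested.

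Searched on both strands and in the whole window, TGATGCAA was found in 4 of the 31 peaks, all at the Pfkp site, and TGATGNAA in the same number. The cyclic AMP response element TGACGTCA was found in 0 and TGACTCA in 2. By list, 0.165% to 0.330% of all peaks held the former and 4.93% to 8.69% the latter. The HIF core letters ACGTG or GCGTG were in 15 of 31, at least 1 of them in 6 of 9, 5 of 12, 1 of 2 and 3 of 8 windows by list, against 33.5%, 32.9%, 33.2% and 33.5% of all peaks. The Pfkp intron site held GCGTG and so was counted once in each of the 4 lists. Such 5-letter matches are common in any sequence of this length, and a match is a description of the letters only.

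Of 48 other genes of glucose metabolism, 3, 3, 4 and 0 had a peak within 5 kb in the 4 lists, or 6.25%, 6.25%, 8.33% and 0%. Pck2, which encodes the mitochondrial phosphoenolpyruvate carboxykinase and acts in the opposite direction to glycolysis, scored 398, 385 and 110 in the first 3 lists, 113 to 122 bp upstream of the TSS. It was the strongest promoter peak of this group in each of those lists, and it exceeded the Pfkp score in WT +Leu and GCN2 KO +Leu but not in WT -Leu. The other 6 genes, Slc2a5, Slc2a6, Slc2a9, Fbp1, Ldhd and Slc16a8, scored from 15 to 34.

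Of 48 other HIF pathway and HIF target genes, 2, 4, 1 and 0 had a peak within 5 kb, or 4.17%, 8.33%, 2.08% and 0%. Ddit4, encoding the mTORC1 inhibitor REDD1, scored 320 in WT +Leu and 384 in WT -Leu. Vegfa, the angiogenic growth factor gene, scored 100 and 67, while Stc2 (69) and Ndrg1 (54) were listed in WT -Leu and Bhlhe41 (33) in GCN2 KO +Leu. Pck2, Ddit4, Vegfa, Stc2 and Ndrg1 thus each had a higher-scoring near-TSS peak in WT -Leu than any of the 38 members, whose near-TSS peaks reached 41 at most. For target genes near the TSS, the paper reported a hypoxia signature as enriched in WT -Leu and in no other condition. Ddit4, Vegfa, Stc2, Ndrg1 and the members Slc2a1 and Pfkl were among the genes it listed there. Enrichment of that signature was not tested here.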

How the data were processed

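ATF4 ChIP-seq of WT and GCN2 KO MEFs with or without leucine was analysed from 4 annotated peak lists, 1 library per condition. Per the labels and the methods, the authors aligned reads to mm10 with BWA (0.7.12), called peaks with MACS2 (2.1.0) against input DNA and annotated the summit ±150 bp with HOMER (4.7). Per the file headers, the input of leucine-fed cells served as control for both lists of a genotype. The 2 input libraries were not analysed here. The score deposited by the authors is not normalized between libraries, and its scale is not given in the sources used here. GC and CpG content were deposited as a fraction of the bases, and the GC content was equal to that of the reference (GRCm38.p6) for every peak on assembled chromosomes.

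Rows whose gene name was one of the 38 members were taken. Peaks were common when centers were 300 bp or less apart. Shares have 95% Wilson intervals. Territories were bounded midway between neighbouring TSSs of the RefSeq annotation. Every member with a peak is named with its values, and those without are named as such. Among the other genes, all with a peak within 5 kb are named, and the highest score in each list with such a peak is given. The members and lists were chosen with earlier results of these data known. Python 3.11.15 (numpy 2.4.6, pandas 2.3.3, pysam 0.24.0, matplotlib 3.10.9) and samtools 1.23.1 were used, and simulated data with known answers were used to check the search for common peaks and motifs. Alternatives were other distances, score limits, list lengths, motif letters and percentile ranks. The search with at most 1 mismatch was added after the data were seen.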

Additional observations from a re-analysis of the deposited data

Results flagged for a closer look

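The percentile rank of the Pfkp intron 1 site within its list differed in opposite directions between -Leu and +Leu in the 2 genotypes. This percentile by score was lower by 0.604 points in WT -Leu than in WT +Leu (a difference of -0.604, from 98.7 to 98.1) and higher by 0.426 points in GCN2 KO -Leu than in GCN2 KO +Leu (from 95.5 to 95.9). A percentile depends on the scores of the other peaks of its list, and the lists differed in length (4850 and 6374 peaks in WT, 3566 and 2672 in GCN2 KO). The cause of these small differences was not tested, and they are not read as a change at the site. The raw score was higher without leucine in both. With 1 library per condition the difference between genotypes was not tested.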

How the results depend on the processing

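No paired analysis was possible because each condition had 1 library. By percentile instead of score, the WT -Leu to +Leu ratio at Pfkp turned from 3.40 to 0.994 (rank 63 of 4850 against rank 121 of 6374), and the GCN2 KO to WT ratios moved close to 1, from 0.403 to 0.967 with leucine and from 0.123 to 0.977 without. The cause was not tested. With only peaks scoring 30 or more, member peaks numbered 2 and 6 in the WT lists (+Leu and -Leu) and 1 and 4 in the GCN2 KO lists, and members with a near-TSS peak numbered 1 in WT +Leu but 0 in GCN2 KO -Leu. Within 1 kb instead of 5 kb, 1 member was left in WT -Leu and 0 in GCN2 KO -Leu. With the 2672 strongest peaks of each list, member peaks numbered 2 in WT +Leu and 5 in WT -Leu. Allowing 1 mismatch raised the member peaks with the ATF4 element to 3 of 12 in WT -Leu, where 18.9% of all peaks had such a match. Of 48 recomputed counts, 37 stayed within 1.5 times the reported one. Many of the 37 could hardly move, so this number does not measure how stable the counts are. The reported common and motif counts rested on the Pfkp site alone, and the GCN2 KO -Leu list was itself 2672 peaks long. Taking the peak nearest to the TSS lowered the score of Pdk2 to 29 and of Epas1 to 25 in GCN2 KO -Leu, and of Hif1a to 13 in WT -Leu. The lists give no depth, so an absent peak is not evidence that ATF4 was absent from a gene.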
